A study of Mus musculus with 2 samples.

Results

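The genes examined here encode the enzymes that remove acetyl groups from lysines, the enzymes that add them, and the corepressor complexes and bromodomain readers that work with them. They were chosen by gene symbol, and all 42 listed symbols were found among the 23238 distinct symbols of the deposited tables: 10 histone deacetylases (HDACs) other than Hdac6, 7 sirtuins, 9 acetyltransferases, 14 corepressor subunits and 2 BET (bromodomain and extra-terminal) readers. Naïve CD4+ T cells came from the spleens of wild-type female C57BL/6 mice, aged 7 to 10 weeks. They were stimulated by an antibody against CD3ε fixed to the plate (5 μg/ml) and one against CD28 in solution (2 μg/ml). To turn them into induced Treg (iTreg) cells, both cultures received TGF-β1 (5 ng/ml), IL-2 (1 ng/ml) and antibodies against IFN-γ and IL-4 (10 μg/ml each) for 1 day. The control culture had DMSO, the solvent, and the other had 10 μM Tubastatin A, an inhibitor with selectivity for HDAC6. It is abbreviated TSA, letters that elsewhere often stand for Trichostatin A, a different compound. The comparison asks whether treatment with Tubastatin A went along with different amounts of message for the listed genes. The paper reports a large rise in α-tubulin acetylation under Tubastatin A and a slight one in histone acetylation, and reads this as specific inhibition. Its discussion adds that inhibitors at high concentrations may also act on other HDACs. Whether a difference below followed from the block of HDAC6 or of another enzyme was not tested.

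Acetyltransferases place acetyl groups on histone tails and on other proteins, which loosens chromatin and creates docking sites for bromodomains, and deacetylases take them off. The zinc-dependent HDACs fall into class I, mostly nuclear enzymes that act inside large corepressor complexes, class IIa, which shuttle between nucleus and cytoplasm and are weak enzymes that act mainly as scaffolds, class IIb and class IV, whereas the sirtuins use NAD+. In Treg cells the Foxp3 protein is itself acetylated by p300 and by KAT5 (Tip60), and HDACs and SIRT1 remove these groups, which makes the protein less stable.

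RNA of 1 culture per condition was sequenced, so no difference below has a replicate check and none has a p-value. Each transcript was read only at its 3′ end, whatever its length, so levels of different genes can be set side by side as reads or as CPM, the reads scaled to the library total. The reads recovered from the deposited values summed to 10845868 for control and 10432698 for TSA, and the 42 genes held 0.504% and 0.475% of them. Fold changes are TSA over control, taken from the deposited log2 values, which hold 1 added count, and each is followed by an exact 95% interval from the reads of the 2 libraries. It holds counting error alone and says nothing of how cultures vary. In a bulk culture, fewer cells of a type and less RNA per cell cannot be told apart. The 5 T cell markers in the tables (Cd3d, Cd3e, Cd3g, Cd4 and Lck) together had 12144 and 12497 reads. The 5 B cell markers had 13 and 18 reads, the 7 myeloid markers 63 and 50, the 2 CD8 T cell markers 80 and 87, the 3 NK cell markers 0 and 1, the 5 erythroid markers 43 and 58, and the 4 dendritic cell markers 11 and 50. Of the last, Flt3 had 0 control and 33 TSA reads, Zbtb46 2 and 11 and Xcr1 9 and 6, and Siglech was at 0 in both libraries. The naïve CD4+ T cells had been purified from spleen with an isolation kit. The part of other cell types in the results was not tested.

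Of the 42 genes, 41 had at least 10 reads in at least 1 library. The levels ran from 1 read (0.0922 CPM) for Hdac9 in the control library to 6588 reads (607 CPM) for Chd4 in the control library. By more than 2-fold, 3 of the 41 were higher in the TSA library (Hdac8, Hdac9 and Hdac11) and none was lower (7.32% past the threshold), whereas 11.5% of all 12164 genes tested were higher, 3.15% lower and 14.7% either by that much. The listed genes were thus past 2-fold no more often than the background. The interval lay wholly above 1 for 9 genes and wholly below 1 for 21, and held 1 for 11. Over all genes tested these shares were 28.1% above and 28% below, or 56.1% apart from 1, beside 73.2% of the 41 genes. Whatever the size of the difference, 26 of the 41 were lower (63.4%), beside 48.6% of all genes, and 15 were higher (36.6%), beside 51.3%. The split of the 41 genes depended on the scaling, because with total reads in place of the authors' scaling 14 intervals lay above 1 and 15 below, beside 33.7% and 21.6% of all genes under that scaling. The median log2 fold change of the 41 genes was -0.21, beside 0.015 for all genes tested.

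**Figure D1:**
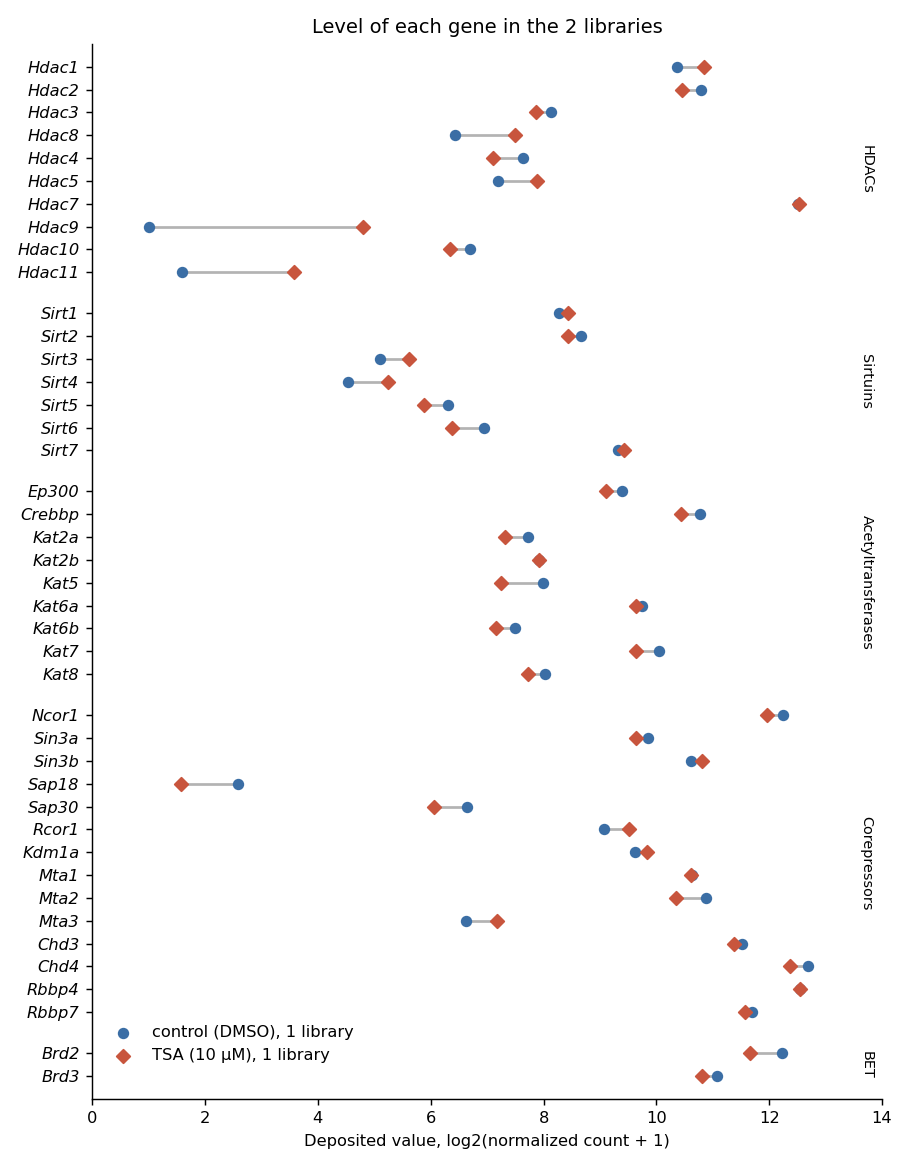
Deposited value, log2(normalized count + 1), of each of the 42 genes in the control library (circles) and the TSA library (diamonds), with a grey line joining the 2 values of a gene. Most pairs lie close together, and the widest gap belongs to Hdac9, with 1 control read and 27 TSA reads.

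Most of these genes were abundant, and in these libraries level and direction went together. At a mean normalized count of 100 or more, 1 of 34 listed genes was past 2-fold (2.94%), beside 2.78% of all 8188 genes at that level (1.48% higher and 1.31% lower). There the interval lay above 1 for 7 of the 34 (20.6%) and below 1 for 20 (58.8%), beside 23.4% and 36.5%, so that 79.4% were apart from 1, beside 59.9%. Whatever the size, 32.4% were higher and 67.6% lower, beside 42.8% and 57.1%. Among all genes averaging 500 normalized counts or more, 34.3% were higher in the TSA library and the median log2 fold change was -0.11, whereas among genes under 20 the share was 75% and the median 1.13. Of the 21 listed genes at 500 or more, 6 were higher and 15 lower, 28.6% higher, with a median of -0.14. For 12 of them the interval lay below 1 (57.1%), beside 48.5% of all genes of that level. From 100 to 500 the interval lay below 1 for 8 of 13 listed genes (61.5%), beside 25.3% of all genes there. Of these 8, the intervals of Hdac3, Sirt2, Kat6b and Kat8 reached 1 with total-read or upper-quartile scaling. Under those scalings 21.6% and 23.9% of all genes tested lay below 1, beside 28% as deposited. The 2 listed genes under 20, Hdac9 and Hdac11, were both higher, but they reached the 10-read minimum only through the TSA library, so that direction was fixed by the filter.

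**Figure D2:**
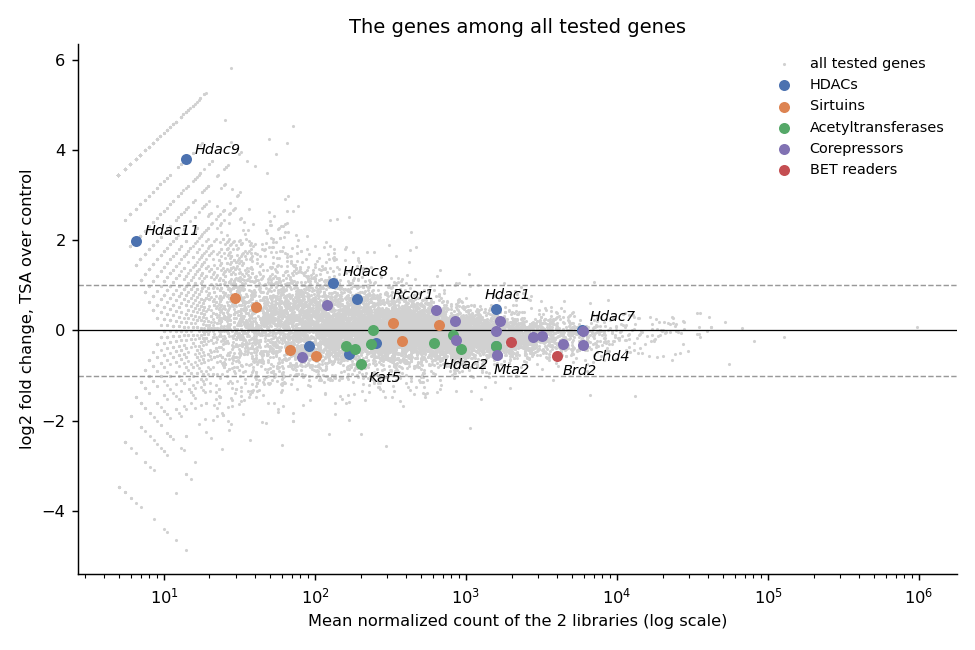
Log2 fold change (TSA over control) against the mean normalized count of the 2 libraries on a log axis, with all 12164 genes tested in grey, the 41 listed genes in colour by family and dashed lines at 2-fold. The cloud tilts upward at low counts, Hdac9 and Hdac11 sit in its upper left part, and the abundant genes lie close to 0.

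Among the class I HDACs, the 2 near-identical enzymes that form the catalytic core of the SIN3, NuRD and CoREST complexes went in opposite directions. Hdac1 had 1315 control and 1836 TSA reads. Its fold change was 1.38 (95% interval 1.29 to 1.48). Hdac2 had 1766 and 1404 reads (fold change 0.787, 0.733 to 0.845). Hdac2 was thus the more abundant message in the control library and Hdac1 in the TSA library, and the ratio of Hdac1 to Hdac2 reads went from 0.745 to 1.31. Hdac1 made up 42.7% of the reads of the pair under DMSO (exact binomial 95% interval 40.9 to 44.4) and 56.7% under TSA (54.9 to 58.4), a share that does not depend on the scaling between libraries. Together the pair stood at 3081 and 3240 reads. Hdac3, the enzyme of the NCoR complex, had 278 and 232 reads (fold change 0.827, 0.691 to 0.987), and its interval reached 1 with total-read or upper-quartile scaling. Hdac8, which deacetylates the cohesin subunit SMC3, had the lowest level of the class, with 85 control and 179 TSA reads. Its fold change of 2.07 was just past 2-fold, and the interval of 1.6 to 2.73 held 2. Summed over the class, the reads were 3444 and 3651, a pooled fold change of 1.05 (1.002 to 1.1). On the GRCm38 assembly (mm10), in the GENCODE M21 annotation, Hdac1 lies on chromosome 4 from 129516104 to 129542713, Hdac2 on chromosome 10 from 36974544 to 37001889 and Hdac8 on chromosome X from 102284639 to 102505359, all as protein-coding genes.

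The class IIa HDACs were dominated by Hdac7, the class IIa enzyme best known from thymocytes, with 5823 and 5905 reads, or 94.4% and 93.6% of the reads of the class. Its fold change was 1.004 (0.968 to 1.04, above 1 with total-read scaling), so the summed message of the class was close to level, at 1.013 (0.978 to 1.05, above 1 with total-read or upper-quartile scaling), while the minor members diverged. Hdac4 had 198 control and 138 TSA reads (fold change 0.692, 0.551 to 0.862). Hdac5 had 144 and 236 reads (fold change 1.62, 1.31 to 2.01). Hdac4 was the more abundant of these in the control library and Hdac5 in the TSA library. Hdac9, which in mice has been described as a brake on Treg cell numbers and function, had 1 control read and 27 TSA reads. The fold change was 13.8, and with 1 control read the interval ran from 4.41 to 1095. Even in the TSA library Hdac9 held 0.428% of the reads of the class (0.282 to 0.622). Hdac9 occupies chromosome 12 from 34047580 to 34917095 on the minus strand. The class IV enzyme Hdac11, at 2 and 11 reads, had a fold change of 3.96 (1.19 to 50.6). Beside Hdac9 and Hdac11, the dendritic cell markers summed to 1.014 and 4.79 CPM, most of the latter from Flt3, with Xcr1 lower and Siglech at 0 in both libraries, and their part was not tested. The class IIb enzyme Hdac10, a polyamine deacetylase, had 102 and 81 reads, and its fold change of 0.788 (0.58 to 1.06) was within counting error. Hdac6 itself, the target of the inhibitor and the other class IIb enzyme, had 146 and 166 reads (fold change 1.13, 0.896 to 1.42).

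**Figure D3:**
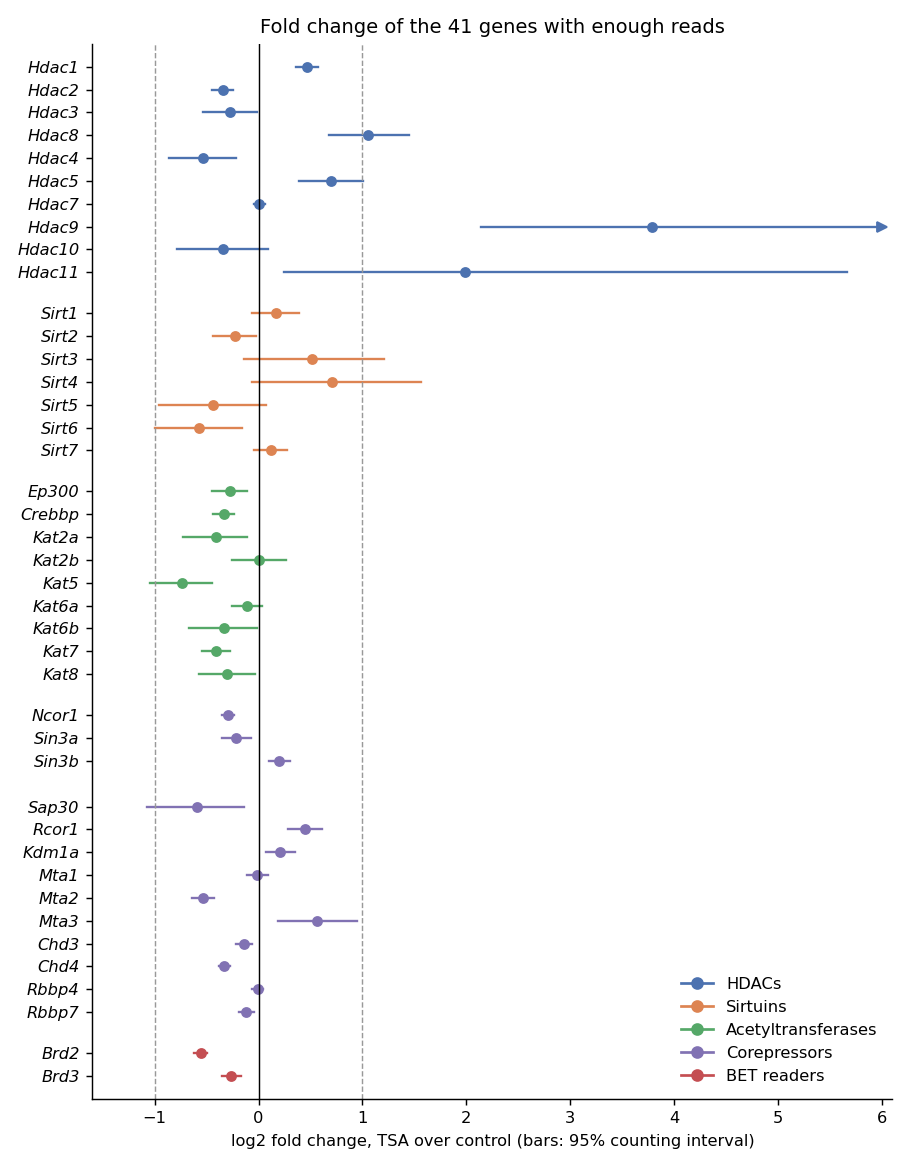
Log2 fold change (TSA over control) of the 41 genes with at least 10 reads in 1 library, coloured by family, with bars for the 95% counting interval of the 2 libraries, an arrow where the bar runs off the axis, and dashed lines at 2-fold. Hdac1 and Hdac2 lie on opposite sides of 0, all acetyltransferases but Kat2b lie to the left of 0, and the bars of Hdac9 and Hdac11 are the widest.

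The bases before the transcription start are shown for an abundant deacetylase gene that was lower, Hdac2, and for both scarce ones past 2-fold, Hdac9 and Hdac11, because their reads lie so far apart in level (RefSeq, GRCm38.p6, 5′ to 3′, with capitals for GGGCGG or CCGCCC, the GC box on either strand, and for TATAAA or TTTATA, the TATA box; no matches overlap in these stretches). The stretch of Hdac2 is chr10:36974294-36974543 on the plus strand, that of Hdac9 chr12:34917096-34917345 on the minus strand and that of Hdac11 chr6:91156565-91156664 on the plus strand, cut where the GENCODE gene begins.
Hdac2: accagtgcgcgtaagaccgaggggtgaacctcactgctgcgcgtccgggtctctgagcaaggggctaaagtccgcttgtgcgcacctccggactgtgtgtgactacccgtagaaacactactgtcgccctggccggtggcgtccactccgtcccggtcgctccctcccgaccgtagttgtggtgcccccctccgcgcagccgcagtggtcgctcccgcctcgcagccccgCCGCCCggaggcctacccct
Hdac9: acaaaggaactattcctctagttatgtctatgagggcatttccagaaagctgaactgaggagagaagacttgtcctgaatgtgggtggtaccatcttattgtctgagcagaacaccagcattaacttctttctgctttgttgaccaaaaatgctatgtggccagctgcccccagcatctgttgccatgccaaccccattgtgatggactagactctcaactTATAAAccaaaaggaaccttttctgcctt
Hdac11: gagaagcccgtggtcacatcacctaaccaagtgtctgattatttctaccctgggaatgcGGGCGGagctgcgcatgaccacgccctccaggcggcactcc
The Hdac2 stretch held 27 CpG dinucleotides and 68.8% G and C, whereas this stretch of Hdac9, whose annotation also has an inner start, held 0 CpG dinucleotides and 44.4% G and C. Hdac11, over the full 250 bases before its start, held 17 CpG dinucleotides and 65.2% G and C, closer to Hdac2 than to Hdac9. Over the 250 bases before every annotated start, a GC box was found in 32.7% of 32851 promoters and in 32 of the 51 promoters listed for 36 of the 42 genes (62.7%). The promoters of the listed genes were also richer in G and C, with a median of 60.8%, beside 52.4% of all promoters, and the GC box is made of these letters alone. A TATA box was found in 12.4% of all promoters and in 3 of the 51. These matches describe letters in a window. No promoter was listed for Hdac1, Hdac3, Hdac10, Kat6a, Mta3 or Chd3.

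The 7 sirtuins summed to 1594 and 1611 reads, a pooled fold change of 1.001 (0.933 to 1.07), and none passed 2-fold. Sirt7, the nucleolar member, was the most abundant, with 631 and 692 reads (fold change 1.09, 0.973 to 1.21). Sirt1, which deacetylates Foxp3 and p53, had 307 and 348 reads (1.12, 0.96 to 1.31). Both intervals held 1, and both lay above 1 with total-read scaling, that of Sirt7 with upper-quartile scaling too. Sirt2, a largely cytoplasmic enzyme that, like HDAC6, deacetylates α-tubulin, had 402 and 346 reads (fold change 0.853, 0.736 to 0.986). Sirt6, a chromatin-bound enzyme linked to DNA repair and glycolytic genes, had 121 and 82 reads (fold change 0.674, 0.501 to 0.895). These were the sirtuins whose interval lay below 1, and for Sirt2 this was lost with total-read or upper-quartile scaling. The mitochondrial members were scarce: Sirt3 had 33 and 48 reads, Sirt4 22 and 37, and Sirt5 78 and 58. Their fold changes of 1.43 (0.906 to 2.32), 1.64 (0.957 to 2.96) and 0.74 (0.515 to 1.05) were not told apart from 1 at this depth, except that the interval of Sirt4 lay above 1 with total-read scaling. For Sirt3, 80.3% of the 75-base stretches in the last 500 bases of its longest coding transcript lie antisense in transcripts of the neighbour Ric8a, and for Sirt5 82.4% of them occur in transcripts of other genes, so reads of both genes are uncertain.

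Of the 9 listed acetyltransferases, 8 had fewer reads in the TSA library. Summed over the 9 genes, the reads went from 5442 under DMSO to 4446 under TSA, a pooled fold change of 0.809 (0.777 to 0.842), or 0.849 with total-read scaling. For 7 of the 9 genes (5 with total-read or upper-quartile scaling) the interval lay below 1 and for none above, where 36.5% of all genes at a mean normalized count of 100 or more lay below 1 and 23.4% above, and 48.5% below at 500 or more. Over all genes tested the share below 1 was 28%, and 21.6% and 23.9% under those 2 scalings. Crebbp, which encodes CBP, had 1741 and 1394 reads (fold change 0.793, 0.738 to 0.851). Its close relative Ep300, which encodes p300, had 664 and 553 reads (fold change 0.825, 0.735 to 0.924). The proportions within this pair differed by less than counting error, with Crebbp at 72.4% of the reads of the pair in the control library (70.6 to 74.2) and 71.6% in the TSA library (69.5 to 73.6). In the GNAT family, Kat2a (GCN5) had 210 and 159 reads (0.751, 0.606 to 0.926), whereas Kat2b (PCAF) had 240 and 243 reads (1.003, 0.835 to 1.2). The 5 acetyltransferases from the list of further genes summed to 3973 and 3700 reads, a pooled fold change of 0.922 (0.881 to 0.965). Their median log2 fold change was 0.031, on the other side of no change, 4 of the 5 intervals held 1, and 1 lay below 1, that of Hat1, which had 1665 and 1350 reads (0.803, 0.747 to 0.863) and was named after its values were seen.

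The MYST acetyltransferases had 2587 and 2097 reads, a pooled fold change of 0.803 (0.757 to 0.85). Kat5, which encodes Tip60, the enzyme of the NuA4 complex that also acetylates Foxp3 and ATM, had 252 control and 152 TSA reads. Its fold change of 0.599 (0.485 to 0.733) was the lowest of the 41 genes. Of the stretches at the Kat5 end, 82.6% lie antisense in transcripts of Rnaseh2c, which had 855 and 934 reads, so reads of Kat5 are uncertain, and the part of the overlap was not tested. Kat7 (HBO1), the most abundant MYST gene in the control library, had 1047 and 795 reads (fold change 0.752, 0.685 to 0.825). Kat6a (MOZ) had 850 and 795 reads (fold change 0.927, 0.84 to 1.02). In the TSA library the reads of Kat7 and Kat6a were equal. Kat6b (MORF) had 179 and 143 reads (0.792, 0.63 to 0.991), and Kat8 (MOF) had 259 and 212 reads (0.812, 0.673 to 0.975), and both intervals reached 1 with total-read or upper-quartile scaling. In part, the Kat8 end overlaps Prss8 on the other strand, at 11.3% of its stretches, and Prss8 had 229 and 156 reads.

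Among the corepressors, Ncor1, the scaffold that recruits and activates HDAC3, had 4826 control and 3980 TSA reads (fold change 0.817, 0.783 to 0.852). Of the SIN3 scaffolds, which carry HDAC1 and HDAC2, Sin3a had 924 and 804 reads (0.862, 0.783 to 0.948) and Sin3b had 1549 and 1796 reads (1.15, 1.07 to 1.23). The 2 paralogs thus lay on opposite sides of 1, and the share of Sin3b went from 62.6% (60.7 to 64.5) to 69.1% (67.3 to 70.9). Sap30, a SIN3 subunit that stabilises the complex, had 99 and 66 reads (fold change 0.663, 0.476 to 0.91). Sap18, a small adaptor of the SIN3 complex, had 5 and 2 reads, below the minimum for testing, and a difference was not detectable at this depth. A copy of the gene on chromosome 8, from 95825356 to 95826156 in RefSeq, listed in the tables as Gm10094 (Sap18b), had 1143 and 1085 reads (fold change 0.94, 0.864 to 1.02). Reads of these genes cannot be separated with certainty, because in 1 coding transcript of Sap18 all 426 of the 75-base stretches at the end are found in Sap18b, and in another 98.8% are.

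Both CoREST genes among the 42 were higher in the TSA library. Rcor1, its founding scaffold, had 536 control and 738 TSA reads (fold change 1.36, 1.22 to 1.53). Kdm1a, which encodes the histone demethylase LSD1, had 782 and 914 reads (fold change 1.16, 1.05 to 1.27). The other scaffold paralogs, which are not among the 42 genes, were both higher by more than 2-fold, as were 11.5% of all genes tested. At 100 to 500 normalized counts, the range of Rcor2, 112 of 4226 genes were higher by that much. At 20 to 100, the range of Rcor3, 441 of 2368 were. Rcor2 had 69 and 253 reads (fold change 3.59, 2.77 to 4.81). Rcor3 had 54 and 140 reads (fold change 2.54, 1.86 to 3.58). In sum the 3 scaffolds had 659 and 1131 reads, a pooled fold change of 1.7 (1.54 to 1.87), and the share of Rcor1 went from 81.3% (78.1 to 84.2) to 65.3% (62.4 to 68). Over all 7 further CoREST genes, none of the intervals lay below 1 and 4 lay above, with a pooled fold change of 1.38 (1.3 to 1.46), where 28.1% of all genes tested lay above 1 and 28% below. The others above 1 were Zmym2, with 343 and 529 reads (1.53, 1.33 to 1.75), and Phf21a, with 593 and 790 reads, the latter named after its values were seen. Rcor1 lies on chromosome 12 from 111039351 to 111115901.

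The NuRD complex joins a chromatin-remodelling ATPase to HDAC1 and HDAC2. Chd4 (Mi-2β), its main ATPase in T cells, was the most abundant of the 42 genes in the control library and had 6588 and 5300 reads (fold change 0.797, 0.768 to 0.826). Chd3 had 2909 and 2659 reads (fold change 0.905, 0.858 to 0.954), and its interval reached 1 with total-read scaling. The MTA scaffolds, which hold the deacetylases in the complex, differed from each other. Mta2 had 1879 control and 1311 TSA reads (fold change 0.691, 0.643 to 0.742). Mta1 had 1571 and 1573 reads (fold change 0.991, 0.924 to 1.06). Mta3 had 97 and 145 reads (fold change 1.48, 1.14 to 1.93). As with Hdac1 and Hdac2, the order turned over: Mta2 held 53% of the reads of the 3 genes in the control library (51.3 to 54.6) and 43.3% in the TSA library (41.5 to 45.1), behind Mta1 with 51.9%. The histone-binding subunits Rbbp4 and Rbbp7, which also belong to SIN3 and Polycomb complexes, were among the most abundant and differed little. Rbbp4 had 5958 and 5984 reads (0.994, 0.959 to 1.031) and Rbbp7 had 3291 and 3061 reads (0.921, 0.876 to 0.968), and with total-read scaling the interval of Rbbp4 lay above 1 and that of Rbbp7 held 1. The ends of both overlap a gene on the other strand, Sync (0 and 7 reads) for Rbbp4 and Txlng (187 and 220 reads) for Rbbp7. Mta2 lies on chromosome 19 from 8941875 to 8952303 and Chd4 on chromosome 6 from 125095981 to 125130591.

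**Figure D4:**
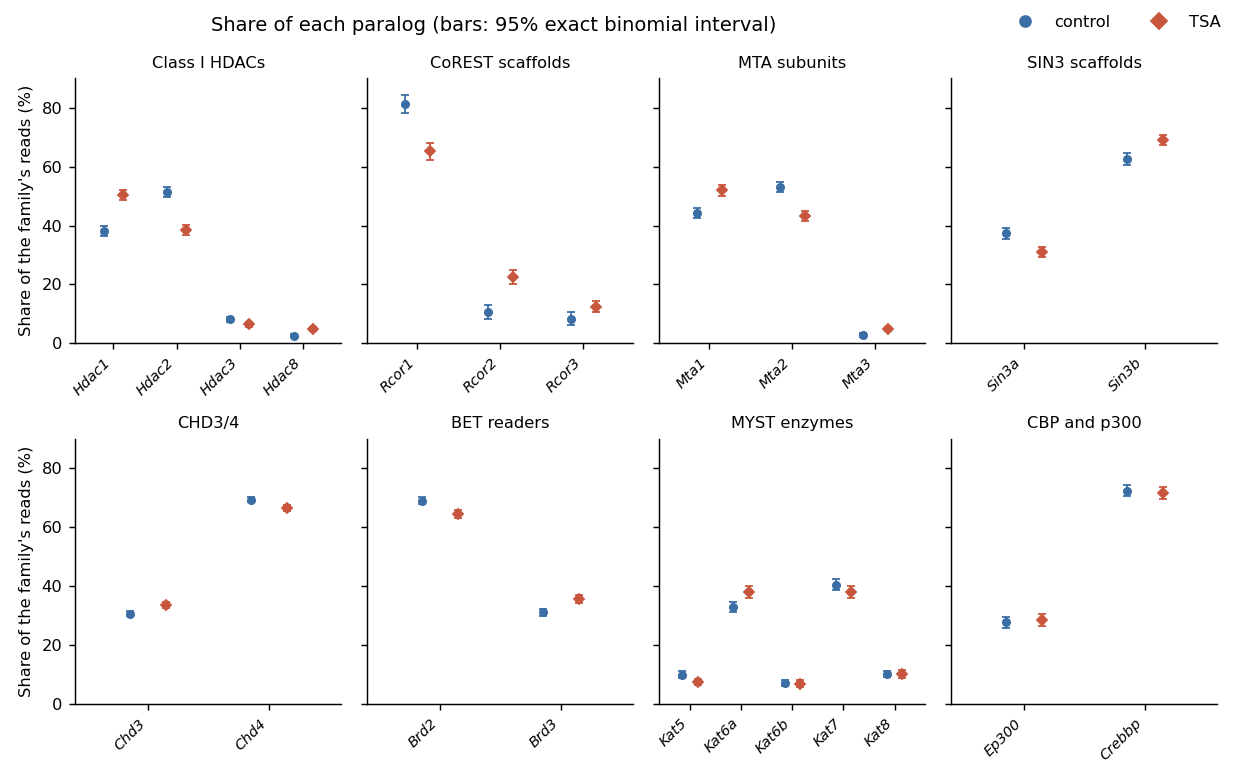
Share of each paralog in the summed reads of its family (%) in the control library (circles) and the TSA library (diamonds), with exact binomial 95% intervals. Hdac1 and Hdac2 exchange places, as do Mta1 and Mta2, the share of Rcor1 is smaller in the TSA library, and CBP (Crebbp) and p300 (Ep300) keep their shares.

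The BET readers bind acetylated histones and recruit the transcription elongation machinery. Brd2 had 4762 control and 3269 TSA reads (fold change 0.68, 0.65 to 0.711). Brd3 had 2138 and 1801 reads (fold change 0.834, 0.783 to 0.888). Both were thus lower, and their summed reads were 6900 and 5070, a pooled fold change of 0.727 (0.702 to 0.755), or 0.764 with total-read scaling. At their level, a mean normalized count of 500 or more, the interval lay below 1 for 48.5% of all genes. Brd2 lies on chromosome 17 from 34112023 to 34122634.

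Further subunits of the same complexes, 77 genes that are not among the 42, were taken from a fixed list to see how the rest of each complex stood. By more than 2-fold, 4 were higher (Rcor2, Rcor3, Ing4 and Cecr2) and none was lower. That is 5.19% higher, beside the 11.5% of all genes tested. Among genes averaging 100 normalized counts or more, 2 of 72 further genes were higher by that much (2.78%), beside 1.48% of all genes. Ing4, a PHD-finger subunit of the HBO1 complexes, had 93 and 230 reads (fold change 2.43, 1.92 to 3.15), and Cecr2, a bromodomain protein, had 5 and 20 reads (fold change 3.47, 1.44 to 13.50). Cecr2 reached the 10-read minimum only through the TSA library, so its direction was fixed by the filter, and with 10 reads in both libraries 3 genes were past 2-fold. The interval lay above 1 for 17 of the 77 and below 1 for 26, or 22.1% and 33.8%, beside 28.1% and 28% of all genes tested. At a mean normalized count of 100 or more, 36.1% of the further genes lay below 1, beside 36.5% of all genes. The median log2 fold change of the 77 was -0.0040. Of the 5 further NuRD genes, 4 had an interval below 1 and none above, with a pooled fold change of 0.865 (0.835 to 0.895). The 22 subunits of MYST complexes had a pooled fold change of 0.917 (0.897 to 0.938), with 11 intervals below 1 and 4 above. Lowest among the 77 genes was Msl3, a subunit of the MOF-containing MSL complex, with 503 and 309 reads (0.609, 0.526 to 0.702). Also among the lowest were the MYST complex genes Jade2, with 949 and 629 reads (0.657, 0.592 to 0.727), and Jade3, with 170 and 115 reads (0.672, 0.524 to 0.854), and the bromodomain gene Brd7, with 1250 and 898 reads (0.712, 0.652 to 0.776). The 14 genes of the GCN5-containing SAGA and ATAC complexes went both ways, with 4 intervals above 1, 3 below and 7 that held 1, a pooled fold change of 1.04 (1.004 to 1.08) and Tada2a highest, at 550 and 753 reads (1.35, 1.21 to 1.52). The 11 further SIN3 genes had a pooled fold change of 0.9949 (0.967 to 1.02) and the 4 further NCoR genes 0.9 (0.851 to 0.953). In the mitotic deacetylase complex MiDAC, Elmsan1 had 179 and 248 reads (fold change 1.37, 1.13 to 1.67).

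**Figure D5:**
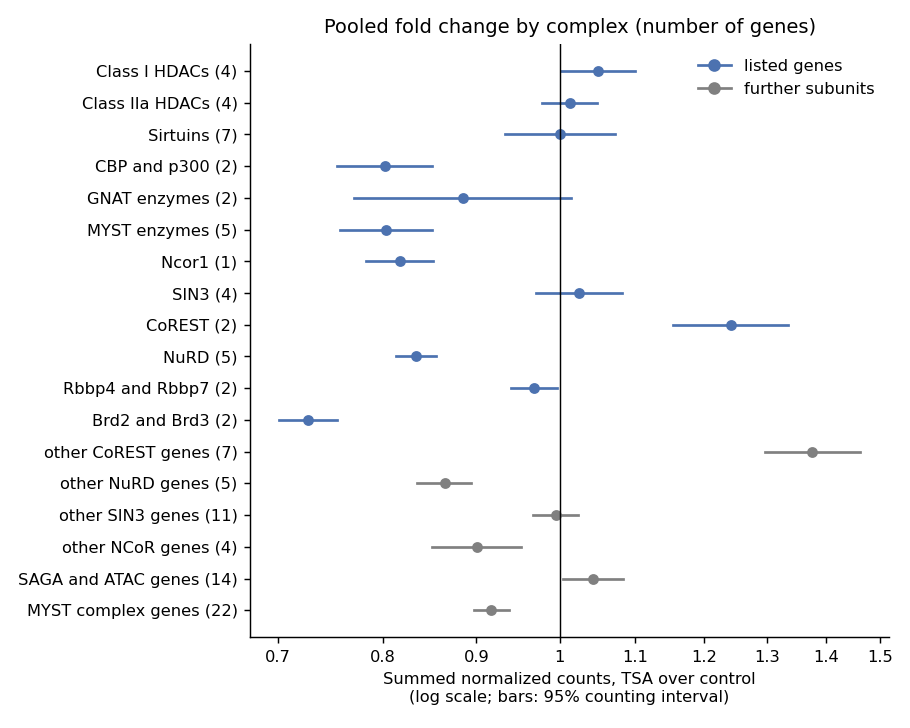
Summed normalized counts of each group, TSA over control, on a log axis with 95% counting intervals, for groups of the 42 genes (blue) and for further subunits of the same complexes (grey), with the number of genes in parentheses. The CoREST groups lie to the right of 1 and the BET readers farthest to the left, at 0.727 for Brd2 and Brd3, with NuRD, CBP and p300, the MYST enzymes and Ncor1 also to the left.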

How the data were processed

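The samples were 1 control and 1 TSA-treated culture, assigned from the treatment labels. The authors made QuantSeq libraries from 500 ng of total RNA, sequenced 75 nt from one end of each fragment, and used the ExDEGA software. The submitters' processing notes name Bowtie2, bedtools and mm10, whereas versions, annotation, strand setting and normalization are not given in the sources used here. The deposited values are log2 of a normalized count plus 1 for 23282 rows (23238 symbols). Taken out of the log2 scale, they fell on steps of 1.005 (control) and 0.9951 (TSA) normalized counts per read. Of values for 1 to 300 reads, 99.7% and 99.9% lay within 0.1 of a whole read, and 3-decimal rounding moves larger values by up to 0.0347%.

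The log2 fold change is TSA minus control in deposited values. Genes reaching 10 reads in either library were tested against the 2-fold threshold of the study, and intervals are exact (Clopper-Pearson, 95%, counting error only, PCR copies included). A floor of 3 reads equals 0.277 (control) and 0.288 (TSA) CPM. A planned trimmed-mean scaling and other scalings, pseudocounts, filters and thresholds were run as alternatives, and the steps were tested on simulated data. The trimmed mean gave the same size ratio of the libraries as the deposited values (1.00995 for both), so it could not move a result. All listed genes are named; of the further subunits, those past 2-fold and the 5 highest and 5 lowest averaging 100 normalized counts or more (1 of these is not reported here). The genes and lists were chosen with earlier results of these data known. Positions come from GENCODE M21 and promoters from RefSeq (both GRCm38). Python 3.11.15, numpy 2.4.6, scipy 1.17.1 and pandas 2.3.3 were used.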

Additional observations from a re-analysis of the deposited data

How the results depend on the processing

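No paired analysis was possible because each condition had 1 library, so none could be left out either. Of 91 values recomputed for counts, medians and pooled fold changes, 76 stayed within the tolerance and 15 did not (counts within 1.5 times, pooled fold changes within the reported interval, medians within 0.165). Within it, the intervals below 1 went from 21 to 15 with total reads and 17 with the upper quartile, the pooled interval of class IIa HDACs lay above 1 with the upper quartile too, and the further subunits higher went from 4 to 6 at 1.5-fold and 3 under the stricter filters. The values under the trimmed mean are counted among the 76 and had to stay, because that scaling matches the deposited one. With total-read scaling, which raised the median log2 fold change of all genes from 0.015 to 0.085, 14 intervals lay above 1, and the pooled fold changes were 1.1 for class I HDACs, 1.06 for class IIa HDACs, 0.849 for acetyltransferases, 0.9497 for corepressors (0.932 with the upper quartile) and 0.764 for BET readers. The median log2 fold change of the listed genes stayed negative, between -0.26 and -0.14. The number past 2-fold was 3 higher and 0 lower as reported. It became 1 higher (Hdac8) with at least 10 reads in both libraries or a mean normalized count of at least 50. When the whole interval had to lie beyond 2-fold it was 1 higher, Hdac9, which reached the 10-read minimum only through the TSA library. At 1.5-fold it was 5 higher and 2 lower, and without a filter 1 was lower (Sap18). For the further subunits, 2 were lower at 1.5-fold and 1 higher (Rcor2) when the whole interval had to lie beyond 2-fold. Among single genes, 5 moved beyond their interval with total-read scaling (Brd2, Chd4, Hdac7, Ncor1 and Rbbp4), each in the same direction except Rbbp4 (log2 fold change 0.062). The depth limits Hdac9, Hdac11, Sap18, the mitochondrial sirtuins and also Sap30, each with fewer than 100 reads in each library.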

Other observations

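The ends of several of these genes are shared with other transcripts, which bears on how their reads were counted. In the last 500 bases of the longest coding transcript, 75-base stretches were looked up on both strands in the GENCODE M21 transcripts of all other genes. For 34 of the 42 genes none was found elsewhere. The share was above 40% for Kat5 (82.6%), Sirt5 (82.4%), Sirt3 (80.3%) and Rbbp4 (44.6%), and 23.5% for Rbbp7, 11.3% for Kat8, 6.81% for Sin3a and 0.939% for Sap18. Apart from Sirt5, all of these matches lay antisense in a neighbouring gene. For Sap18 the longest transcript hides the overlap with its copy, because the matches to Sap18b lie at the end of the shorter transcripts. The ratio of Gm10094 reads to Sap18 reads was 229 (control, on 5 Sap18 reads) and 543 (TSA, on 2).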
